A study of Mus musculus with 4 samples.

Results

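Olfactory receptor genes and pseudogenes were followed through chromatin accessibility in mouse embryonic stem cells, as a family that is kept closed outside the nose. Members were all rows of the table whose symbol is Olfr followed by a number, 1346 of 46406 rows. Of these, 1088 had a plain symbol and are called intact, and 258 carried "-ps" in the symbol and are called pseudogenes. RefSeq's GRCm38 annotation (mm10 is the same assembly) placed 1334 of them on a chromosome and left 12 without a position. It lists 1077 placed intact rows as protein-coding, 6 as transcribed pseudogenes, 2 as pseudogenes and 1 as another RNA. Among the placed pseudogene rows, 235 are listed as pseudogenes, 10 as transcribed pseudogenes and 3 as protein-coding.

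Olfactory receptors are G protein-coupled receptors that bind odorants in the cilia of olfactory sensory neurons and signal through the G protein Golf, adenylyl cyclase and a cyclic nucleotide-gated channel. They form the largest gene family of the mouse, lie in clusters on most chromosomes, and split into class I receptors, which resemble those of fish and sit in 1 cluster, and the more numerous class II receptors. A mature neuron expresses a single receptor allele, while the other copies are packed in constitutive heterochromatin; in most other cell types the whole family is silent.

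The cells were J1, a wild-type embryonic stem cell line grown without a feeder layer, labelled with passage "PN+8" in every library. The labels give 2 control libraries, called wild type, and 2 libraries labelled Zscan4 OE, in which Zscan4 was overexpressed, a zinc finger protein of 2-cell embryos; the construct, its promoter and whether the cells are 1 clone are not given in these sources. ATAC-seq cuts and tags open DNA with the Tn5 transposase, so a region with more reads is more accessible, and in bulk cells a higher share of cells with an open copy and a more open copy in each cell cannot be told apart. The labels do not say that the replicates were separate cultures, so p-values cover the spread among these 4 libraries alone, which may be technical.

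For the family as a whole, RefSeq gives 921 promoter windows (GRCm38.p6, 250 bases before the annotated start to 50 after it) for 917 of the member symbols. Their median GC content was 35%, against 52.7% over all 32851 windows of the table, and they held a median of 1 CpG, against 7. No CpG at all was found in 33.7% of the Olfr windows and in 5.43% of all windows. In 73.0% of Olfr windows the bases at the annotated start read ATG, against 5.83% of all, so for most receptors the window lies before the start codon and not before a mapped transcription start. 3 motifs were searched on both strands: TATAAA, the core of a TATA box; TAATTA, a homeodomain core that reads the same on either strand; and TCCCNNGGGA, the core of the Olf/Ebf site, which also reads the same on either strand. TATAAA was present in 40.8% of the Olfr windows and 13.6% of all, TAATTA in 18.5% and 5.29%, and TCCCNNGGGA in 0.543% (5 windows) and 0.904%. TATAAA and TAATTA hold only A and T, and the Olfr windows are poorer in GC than all windows. The part of base composition in these shares was not tested. A match is a match of letters in this window and says nothing of binding, and the table's values cover exons, not these windows.

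The 250 bases before the annotated start are shown for 5 receptors on which results below turn, 5′ to 3′ on the gene's strand, with TATAAA or TAATTA in capitals on whichever strand they matched. Olfr147 (chr9:38401461-38401710, plus strand) had the highest mean level of the intact rows, and Olfr15 (chr16:3838725-3838974, plus strand) is a well-studied receptor with the most GC-rich of the windows printed here. Olfr770 (chr10:129133767-129134016, minus strand) was among the 3 highest intact rows with 20 or more reads by mean level. Olfr348 (chr2:36786277-36786526, plus strand) had the most negative statistic of the well-covered rows, and Olfr1036 (chr2:86074454-86074703, plus strand) was among the lowest.
Olfr147: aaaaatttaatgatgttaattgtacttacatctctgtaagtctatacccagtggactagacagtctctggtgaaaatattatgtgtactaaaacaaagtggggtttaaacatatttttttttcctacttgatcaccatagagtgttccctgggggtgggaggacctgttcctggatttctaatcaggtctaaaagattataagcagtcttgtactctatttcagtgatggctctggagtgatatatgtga
Olfr15: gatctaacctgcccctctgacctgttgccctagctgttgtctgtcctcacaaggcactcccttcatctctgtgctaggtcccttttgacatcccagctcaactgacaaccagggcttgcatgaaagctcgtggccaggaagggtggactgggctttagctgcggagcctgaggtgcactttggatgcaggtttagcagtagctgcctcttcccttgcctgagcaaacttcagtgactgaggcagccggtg
Olfr770: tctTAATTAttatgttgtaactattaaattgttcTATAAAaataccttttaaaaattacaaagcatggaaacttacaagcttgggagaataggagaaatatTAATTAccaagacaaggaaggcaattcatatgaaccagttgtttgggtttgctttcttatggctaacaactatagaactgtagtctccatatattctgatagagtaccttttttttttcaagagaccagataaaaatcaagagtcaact
Olfr348: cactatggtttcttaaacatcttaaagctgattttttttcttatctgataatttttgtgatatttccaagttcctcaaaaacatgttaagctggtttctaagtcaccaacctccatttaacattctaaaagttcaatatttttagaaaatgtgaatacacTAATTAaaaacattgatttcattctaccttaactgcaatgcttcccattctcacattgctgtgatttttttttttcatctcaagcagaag
Olfr1036: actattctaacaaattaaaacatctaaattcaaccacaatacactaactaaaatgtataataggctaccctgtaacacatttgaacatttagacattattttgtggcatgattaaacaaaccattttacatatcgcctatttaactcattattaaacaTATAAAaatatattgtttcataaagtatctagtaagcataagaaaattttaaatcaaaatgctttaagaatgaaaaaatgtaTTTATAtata
The windows of Olfr147 and Olfr15 held neither motif, with GC contents of 36.4% and 56.0%. Olfr770 (29.6% GC) held 1 TATAAA and 2 TAATTA, Olfr348 (29.2%) held 1 TAATTA, and Olfr1036 (22.4%) held TATAAA once on each strand.

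The libraries were shallow. Which total belongs to which library was worked out from the values, by making the share of reads in the table's rows most alike between libraries. Ratios within a library do not depend on this choice, but sums compared between libraries do. The library totals ran from 1061428 reads in control 1 to 4899494 in Zscan4 OE 2, with 2903602 in control 2 and 3605774 in Zscan4 OE 1. Of these reads, 9.38% to 12.8% fell in the table's rows. Values below are RPKM, the reads of a row divided by its length and by the library total, after rescaling to each library's own total; a density is the summed reads of a set over its summed row length in the same unit. Embryonic stem cell markers had reads in every library except Dppa5a in control 1, and their pooled densities were 1.82 and 1.19 RPKM in the controls, against 2.82 and 1.55 under Zscan4 OE. 6 fibroblast markers, for feeder cells, stood between 0.868 and 1.08 RPKM in the 4 libraries. Zscan4a, Zscan4c, Zscan4d, Zscan4e and Zscan4f, near-identical copies, were listed at 0 in all 4 libraries, so the overexpressed gene gave no check of the labels. Accessibility over exons is not expression, so the marker lists check the cell label only loosely.

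Olfactory receptor rows were thinly but not emptily covered in every library. Summed over all 1346 rows, their density was 0.290 and 0.328 RPKM in controls 1 and 2, then 0.333 and 0.311 under Zscan4 OE, while all other rows stood at 1.08, 0.816, 1.12 and 0.865. Within each library, where the choice of total cancels, the ratio of Olfr to other rows was 0.269, 0.402, 0.298 and 0.360. It was lowest and highest in the controls, so the group means of 0.335 ± 0.0940 (SD, n = 2) and 0.329 ± 0.0435 (SD, n = 2) for Zscan4 OE differed by less than the spread between replicates. By row medians the ratio was 0.187 in the controls and 0.337 in Zscan4 OE, so the likeness of the groups depends on the summary used. The median Olfr row had no read in control 1, the library with the lowest total, which made its ratio 0. In control 2, Zscan4 OE 1 and Zscan4 OE 2 the Olfr medians were 0.226, 0.251 and 0.252 RPKM. Those of all other rows were 0.605, 0.789 and 0.707.

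Intact and pseudogene rows lay at nearly the same density. Intact receptors had 0.285 and 0.327 RPKM in the controls, against 0.333 and 0.309 under Zscan4 OE. Pseudogenes had 0.347, 0.343, 0.334 and 0.339 in the same order. The ratio of pseudogene to intact density was 1.13 ± 0.119 (SD, n = 2) in the controls and 1.05 ± 0.0699 in Zscan4 OE, so the excess over 1 was about the size of the spread between replicates. Median row values gave another order: the median pseudogene over the median intact row was 0.277 in the controls and 0.942 in Zscan4 OE. The median pseudogene row had no read in control 1.

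The lengths recovered from the values had a median of 2926 bases over 1062 intact rows and 920 over 240 pseudogenes. Among placed rows, 872 of 1060 intact rows were longer than their RefSeq span, whose median is 948 bases, while 117 of 230 pseudogenes were. Among rows under 1000 bases, 172 pseudogenes stood at 0.473, 0.473, 0.468 and 0.480 RPKM in the 4 libraries and 68 intact rows at 0.396, 0.258, 0.314 and 0.340. From 4000 bases up, 17 pseudogenes stood at 0.237 to 0.290 and 294 intact rows at 0.275 to 0.335. Rows without reads have no recovered length and are missing from these bins. A recovered length may be too small by a factor it shares with the row's reads, so some rows may sit in too short a bin. With such rows given the median length of their set, the pseudogene to intact ratio was 1.10 in the controls and 1.02 in Zscan4 OE.

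Other gene families that are silent in stem cells were set beside the receptors. The 399 vomeronasal receptor rows (Vmn1r and Vmn2r, the pheromone receptors) were lower, at 0.252, 0.256, 0.266 and 0.249 RPKM, and the Olfr to vomeronasal ratio was above 1 in 4 of 4 libraries, from 1.15 to 1.28. Exact Poisson 95% intervals of the 2 families did not overlap in control 2 and in Zscan4 OE 1 and 2, and did in control 1 (0.274 to 0.308 against 0.221 to 0.286); intervals and limits cover counting error only. The 40 bitter taste receptor rows (Tas2r) stood at 0.348, 0.328, 0.315 and 0.445 RPKM, on either side of the olfactory receptors. Keratin-associated proteins (54 rows, 0.507 to 0.632) and defensins (47 rows, 0.585 to 0.970) lay above them in every library. The 381 rows of other genes that lie inside olfactory receptor clusters had 0.980, 0.815, 1.06 and 0.774 RPKM. Their density was close to that of the whole table, and the Olfr rows around them had 0.296, 0.403, 0.315 and 0.402 of it.

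**Figure D1:**
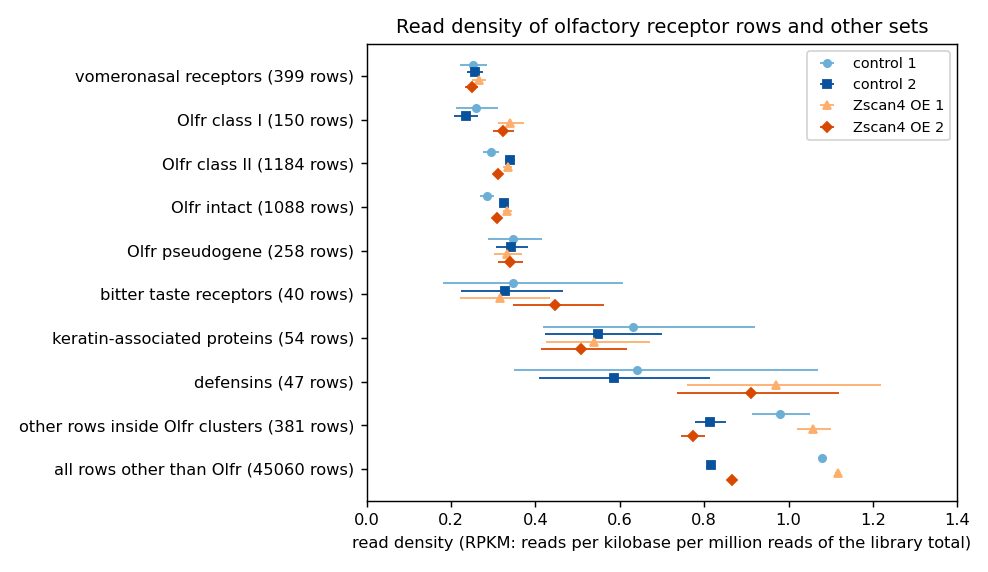
Read density in RPKM (horizontal axis) of olfactory receptor rows, of other gene families and of all other rows, with 1 point per library and exact Poisson 95% intervals of the summed reads. Intact and pseudogene receptors lie between 0.285 and 0.347 RPKM, just above vomeronasal receptors and well below the other genes inside the same clusters.

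Summed over the family, accessibility did not differ between the groups by more than its spread. Intact receptors had 963 and 1103 RPM (reads scaled by the library total alone) in the controls, against 1126 and 1042 under Zscan4 OE. Control 1 was the lowest library, and control 2 lay between the Zscan4 OE libraries. The Poisson intervals of Zscan4 OE 1 and 2, 1091 to 1161 and 1014 to 1071 RPM, did not overlap. The group means were 1033 ± 99.2 and 1084 ± 59.1 RPM (SD, n = 2 each), a ratio of 1.05. The two-sided exact permutation p was 0.667, where 0.333 is the smallest p that 2 against 2 libraries allow. Pseudogenes had 110 and 109 RPM in the controls, against 106 and 108 under Zscan4 OE, means of 109.5 ± 0.989 and 106.9 ± 1.29 (ratio 0.976, exact permutation p = 0.333). Their groups did not overlap, but each library's Poisson interval, such as 91.2 to 132 RPM in control 1, covered the means of both groups. For all rows together the ratio was 1.04, and with the table's reads in place of the library total as the scale it was 0.981, so its direction depends on the scale. In the values as deposited, where the totals rotate, the ratio was 2.20.

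Class I receptors, the 150 rows on chromosome 7 between Rrm1 and Apbb1, had more reads in both Zscan4 OE libraries than in either control. Their sums were 102 and 92.6 RPM in the controls, against 134 and 128 RPM under Zscan4 OE. The groups did not overlap, and the means of 97.2 ± 6.44 and 130.9 ± 4.71 RPM (SD, n = 2 each) gave a ratio of 1.35, with an exact permutation p of 0.333, the smallest possible. Leaving out each library in turn gave ratios from 1.29 to 1.41, and dividing by the reads of the table gave 1.29. The 1184 class II rows had a ratio of 1.02. Within libraries, class I density was 0.876 and 0.691 of class II density in the controls, against 1.02 and 1.04 under Zscan4 OE. All class I rows are neighbours in 1 cluster (chromosome 7, 102476773 to 105369317) and 23 of them are pseudogenes. The 201 rows of other genes within 5 Mb on either side were scaled to all reads of placed rows outside the family. On that scale they were also higher in both Zscan4 OE libraries, with a ratio of 1.14. The class I ratio of 1.35 is per library total, so the 2 ratios are on unlike scales. The 8 olfactory sensory neuron markers were also higher in sum, though 0 of 8 passed limma's test and Cnga2, Gnal, Stoml3, Ncam1 and Omp overlapped between groups, with summed levels of 15.1 and 19.3 RPM in the controls, against 26.3 and 28.8 under Zscan4 OE, and Cnga2, Stoml3 and Gap43 at 0 in control 1; their part in the class I result was not tested.

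**Figure D2:**
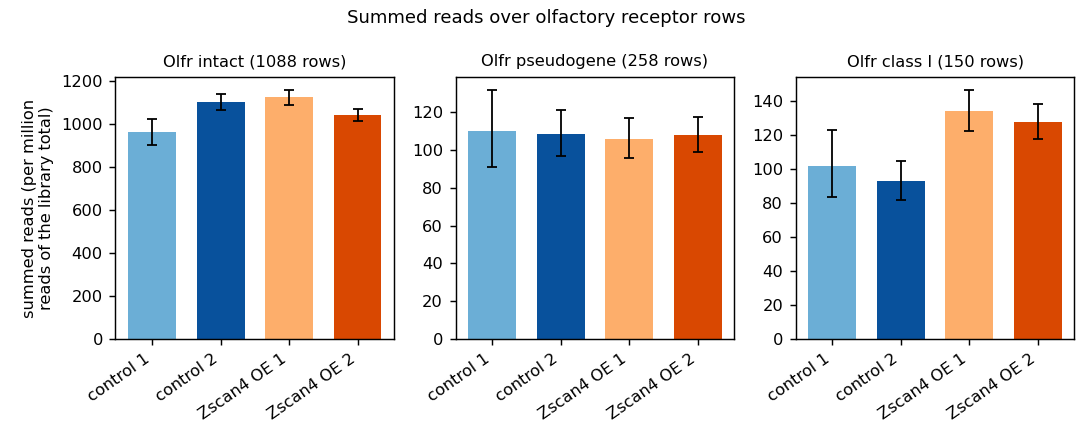
Summed reads in RPM (vertical axis, from 0, own scale in each panel) for intact, pseudogene and class I rows in the 4 libraries, with exact Poisson 95% intervals. Intact and pseudogene sums overlap or nearly do between groups, and the class I sums are 102 and 92.6 in the controls against 134 and 128 in Zscan4 OE.

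How many receptors showed any read followed depth. A read was present in 643 of 1346 rows in control 1, 973 in control 2, 1059 in Zscan4 OE 1 and 1141 in Zscan4 OE 2, the order of the library totals. At the total of control 1, the expected numbers were 644, 668 and 667 for the other 3 libraries; only the library total was matched, and the share of reads in the table's rows still differed. Intact receptors were detected more often than pseudogenes at that depth, 51.7% to 54.2% against 29.5% to 31.4%, and their rows were longer, as the median lengths above show. Reads were present in all 4 libraries in 464 rows, and 44 rows (26 intact, 18 pseudogenes) had none in any; a row without reads may hold up to 3 reads' worth, which is 2.83 RPM in control 1 and 0.612 in Zscan4 OE 2. Reads were not spread over receptors by length alone: the chi-square over degrees of freedom against an even density was 1.56, 2.96, 3.5 and 2.74 in the 4 libraries, where counting error gives 1.

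**Figure D3:**
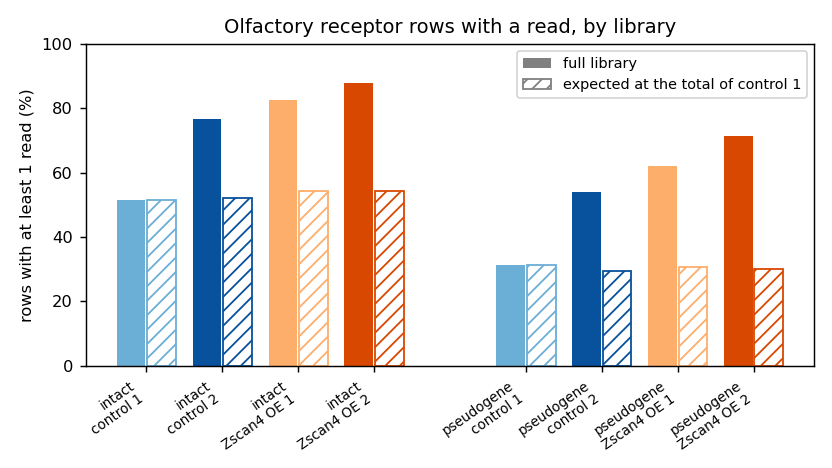
Share of intact and pseudogene olfactory receptor rows with at least 1 read (vertical axis, percent), in the full libraries (filled) and computed for the total of control 1 (hatched). Full libraries rise with depth from 51.7% to 88.0% for intact rows, and computed for an equal library total all 4 lie between 51.7% and 54.2%.

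No receptor passed the test for a difference, but the test had little power. In simulated reads with counting error alone, the limma fit described next recovered 0% of 4-fold and 0% of 16-fold changes. The fit of rows with 20 or more reads, given further below, recovered 19% and 100%. The changes were put into rows of the table with 100 or more reads. Members held at most 117 reads, with a median of 9 in those with any, so these shares do not describe typical receptors. A count of 0 therefore does not show that receptors were unchanged. Limma on log2(RPKM + 0.1), with Benjamini-Hochberg adjustment over all 42989 rows with a mean of at least 0.1 RPKM, tested 1148 members (938 intact and 210 pseudogenes) and called 0; over all rows it called 0.0%, and the smallest adjusted p of a member was 0.202. At an unadjusted p under 0.05, 24 members were higher in Zscan4 OE, 2.09% of those tested against a background of 5.09%, and 16 were lower, 1.39% against 1.33%. The median log2 difference of members was 0.30, beside 0.28 over all rows tested; it was 0.02 beside 0.00 with library medians centred, and -0.62 beside -0.04 with quantile normalization, which turned its direction. Leaving out Zscan4 OE 1 or Zscan4 OE 2 called 108 and 109 members, of which 107 and 109 were higher and had no read in either control. These are 9.41% and 9.49% of the members tested, near the 10.6% and 9.05% of all rows called in the same fits. Leaving out either control called 0 members.

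Rows with 20 or more reads over the 4 libraries carry more weight. They were 207 members, 200 intact and 7 pseudogenes, and limma on the 19012 such rows of the table called 0 of them, where 0.0263% of all rows were called; voom on the recovered reads also called 0 members. At an unadjusted p under 0.05, limma had 9 members higher (4.35%, against 4.04% of all such rows) and 6 lower (2.90%, against 0.984%). Voom had 5 higher (2.42%, against 3.35%) and 16 lower (7.73%, against 1.78%), so the share of lower members was above that of all rows by both tools, without any passing the adjustment. Groups did not overlap, with Zscan4 OE higher, in 45 members (21.7%, against 20% of all rows with 20 or more reads), and with Zscan4 OE lower in 29 (14.0%, against 11.0%). Both shares without overlap lie near the background. Without control 2 limma called 24 members, 21 higher and 3 lower, which is 11.6% against 5.18% of all rows. Without control 1 it called 15, 4 higher and 11 lower, which is 7.25% against 2.84%; a lone control is then assumed to vary like the other libraries.

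Among these 207 rows the median level was 0.444 RPKM, against 1.03 RPKM over 15005 protein-coding rows with as many reads, and 13 members had a mean above 1 RPKM. The highest intact row was Olfr147 (chromosome 9, 38401711 to 38403829), with 1.58 and 0.965 RPKM in the controls, against 3.26 and 1.14 under Zscan4 OE. Its 63 reads in Zscan4 OE 1 were the most of any member in 1 library, and Zscan4 OE 2 fell between the controls. Olfr1358 followed, at 0.886 and 1.62 RPKM in the controls, against 2.09 and 1.92 under Zscan4 OE; its span holds Gm47944, and without a known strand setting reads of the pair cannot be told apart. Olfr770 stood at 1.49 and 1.82 in the controls, against 1.32 and 0.431 under Zscan4 OE, lower in both than in either control. Olfr543, a class I receptor, had 1.29 and 0.710 RPKM in the controls, against 1.33 and 1.54 under Zscan4 OE from only 2 to 11 reads a library. The other 6 of the 10 highest intact rows, among them Olfr484, Olfr52, Olfr1342 and Olfr283, had means from 1.01 to 1.21 RPKM, and the groups overlapped in Olfr484 and Olfr283. The 10 rows with most reads held 4.82% of all Olfr reads.

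Pseudogenes with 20 or more reads reached as high. Only 7 passed that minimum, and the shorter a row is, the higher the level it needs to pass. Olfr754-ps1 (chromosome 17, 37250097 to 37250888) had 2.07 and 3.78 RPKM in the controls, against 3.04 and 2.46 under Zscan4 OE, the highest mean of the 207 rows at 2.84, from 2 to 11 reads a library. Olfr1069-ps1 was higher in both Zscan4 OE libraries, at 2.87 and 2.54 RPKM against 0.976 and 1.43 in the controls, against an adjusted p of 0.999 in limma's fit of rows with 20 or more reads. Olfr718-ps1 lay at 0.944, 1.04, 0.834 and 1.19 RPKM and did not separate the groups. Olfr650-ps1, in the class I cluster, and Olfr1038-ps had means of 0.786 and 0.480 RPKM.

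The 5 largest positive statistics among rows with 20 or more reads belonged to Olfr1495, Olfr94, Olfr90, Olfr1413 and Olfr1341. Olfr1495 (chromosome 19) had no read in control 1 and 0.493 RPKM in control 2, and 1.06 and 0.974 RPKM in Zscan4 OE. Olfr94 (chromosome 17, 37196806 to 37197966) had the tightest groups, 0.499 and 0.548 RPKM in the controls, against 1.47 and 1.51 under Zscan4 OE, a log2 difference of 1.35 ± 0.48 (SE). Olfr90, in the same cluster as Olfr94, had 0.296 and 0.540 RPKM in the controls, against 1.57 and 0.832 under Zscan4 OE. In all 5 rows both Zscan4 OE libraries exceeded both controls, and the adjusted p in limma's fit ran from 0.897 to 0.943. The log2 differences ran from 1.31 in Olfr90 to 2.20 in Olfr1495.

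The 5 most negative statistics were those of Olfr348, Olfr1509, Olfr981, Olfr218 and Olfr1389. Olfr348 (chromosome 2, 36786527 to 36787468) had 1.55 and 1.80 RPKM in the controls, from 6 and 19 reads, and 0.458 and 0.225 in Zscan4 OE, from 6 and 4 reads. This is a log2 difference of -2.06 ± 0.50 (SE), with an adjusted p of 0.728 in the fit of rows with 20 or more reads and 0.523 in the fit of all rows, both by limma. In the former fit the adjusted p was 0.00417 without control 1 and 0.00588 without control 2, and 1.0 without either Zscan4 OE library. Olfr1509 stood at 1.83 and 1.20 RPKM in the controls, against 0.431 and 0.396 under Zscan4 OE, and its span lies within the T cell receptor gene Tcra. Olfr981 had 0.805 and 1.39 RPKM in the controls, against 0.237 and 0.374 under Zscan4 OE. All 5 rows were lower in both Zscan4 OE libraries than in either control, and none passed the threshold. Olfr981 lies in the larger chromosome 9 cluster, whose rows were high in control 2.

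**Figure D4:**
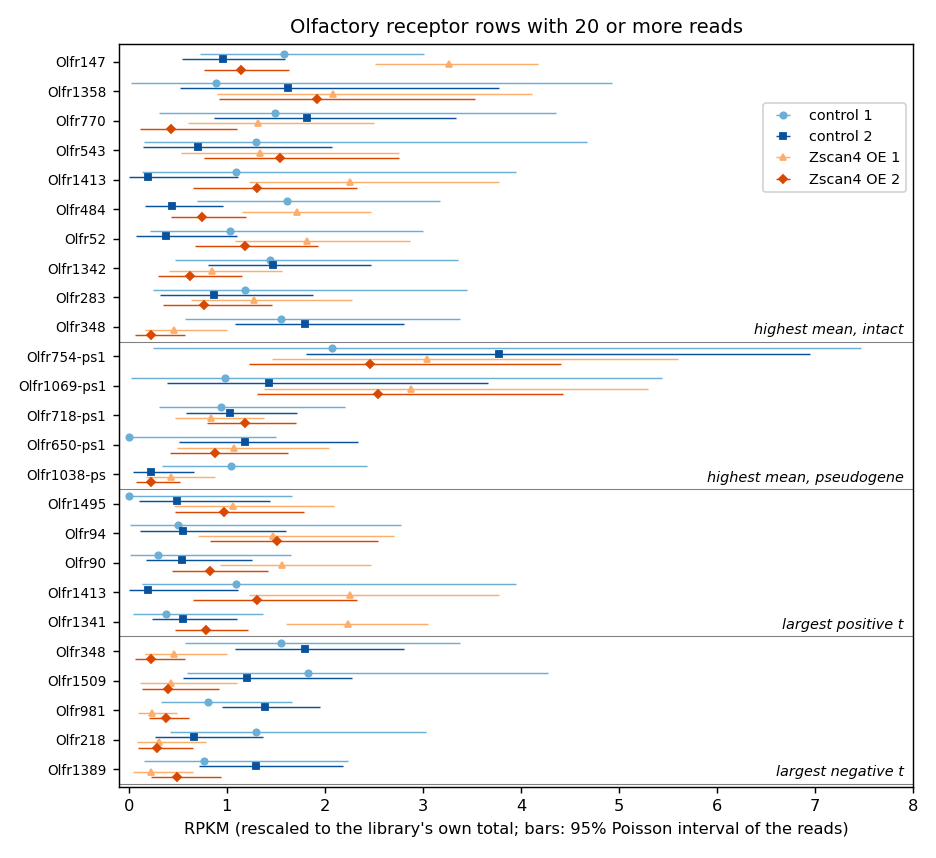
RPKM (horizontal axis) of the olfactory receptor rows with 20 or more reads named by level and by statistic, 1 point per library with the exact Poisson 95% interval of its reads. The intervals are wide, and Olfr147 in Zscan4 OE 1 (3.26 RPKM) and Olfr754-ps1 in control 2 (3.78 RPKM) are the highest points.

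With no read minimum, most of the strongest statistics belonged to rows with reads in 1 group only. Olfr1007-ps1 had 2 and 1 reads in the Zscan4 OE libraries and none in the controls, against the smallest adjusted p of any member (limma, 0.202). Olfr555, a class I receptor, had 3 and 7 reads in Zscan4 OE and none in the controls. Set against 3 reads over the control group (0.757 RPM), its Zscan4 OE level of 1.18 RPM was 1.55-fold higher. That fold leaves out the counting error of its own 10 reads. Olfr692, a class I receptor known for responses to pup odours, and Olfr1091-ps1 each had 2 and 3 reads in Zscan4 OE and none in the controls, under what 3 control reads allow. Olfr515-ps1 had 6 and 1 reads in Zscan4 OE and none in the controls, 1.09-fold over the same limit, again without counting error of its reads. These rows were picked by their statistic, so the folds are a description and not a test. In the other direction, Olfr1041-ps1 and Olfr1070-ps1 had 1 read in each control and Olfr1375 had 1 and 2, all with none in Zscan4 OE. Olfr1006 had 2 and 7 reads in the controls, against 1 and 2 under Zscan4 OE, from 1.16 and 1.48 RPKM down to 0.17 and 0.25, with an adjusted p of 0.508 in limma.

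Receptors that are well studied elsewhere had means from 0 to 0.974 RPKM, on either side of the family's densities of 0.290 to 0.333 RPKM. Olfr15 was the highest, with 1.35 and 0.825 RPKM in the controls, against 1.06 and 0.652 under Zscan4 OE. Its lower Poisson limits in the same order, 0.619, 0.462, 0.681 and 0.398 RPKM, lay above the family's density in every library. Olfr690, a receptor for isovaleric acid, had 1.79 and 0.328 RPKM in the controls, against 0.264 and 0.680 under Zscan4 OE. Olfr16, also expressed in sperm, had 0.701, 0.768, 0.825 and 0.304 RPKM in the same order. These 3 rows varied as much between replicates as between groups. Olfr1393, described in the kidney, had no read in control 1 and 0.801 RPKM in control 2, and 0.461 and 0.949 in Zscan4 OE. Olfr78, a class I receptor of the carotid body, had 0.312 and 0.4 RPKM in the controls, against 0.598 and 0.575 under Zscan4 OE; its span overlaps Olfr560. Olfr544, a class I receptor for azelaic acid, was even across libraries, at 0.576, 0.421, 0.424 and 0.437 RPKM. Olfr692, with a mean of 0.518 RPKM, stood between Olfr1393 and Olfr78. Olfr17, Olfr558, Olfr2 (the octanal receptor), Olfr160, Olfr1507 and Olfr73 (a eugenol receptor) followed Olfr544, with means from 0.355 down to 0.151 RPKM. Olfr151, which RefSeq lists as a transcribed pseudogene, was at 0 in all 4 libraries. Neighbours in this order did not differ beyond the spread over libraries, and the adjusted p of the 13 rows with reads ran from 0.4 (Olfr692) to 0.998 in limma. The lowest intact rows of 1000 bases or more were Olfr715, Olfr55, Olfr1477, Olfr1036 and Olfr1168, each with a single read in 1 Zscan4 OE library and none elsewhere. For Olfr1036 more than 1 total could explain the value, so its library total, and hence its level, is less certain. Members with near-identical copies, and the 43 rows that lie over another gene's span, are uncertain in the same way, and how the authors handled such reads is not given here.

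Genes that carry the receptor's signal were more accessible than the receptors in the same libraries. The 12 signalling genes, among them the G protein subunit Gnal, the cyclase Adcy3 and the channel subunit Cnga2, had pooled densities of 0.758 and 0.711 RPKM in the controls, against 0.839 and 0.828 under Zscan4 OE. All 12 were tested and 0 passed in either direction, with 8 positive and 4 negative log2 differences and a median of 0.48. Adcy3 had 0.754 and 1.10 RPKM in the controls, against 1.24 and 1.41 under Zscan4 OE, while Cnga2 was listed at 0 in control 1 and stayed under 0.270 elsewhere. Omp, the marker of mature olfactory neurons, had 0.439, 0.321, 0.259 and 0.762 RPKM. Of 14 genes of receptor export and choice, 0 passed, with 8 positive and 6 negative differences. Lhx2, a homeodomain factor of receptor enhancers, had 1.5 and 1.41 RPKM in the controls, against 1.89 and 1.25 under Zscan4 OE, and Lbr, the lamin B receptor, which is kept off in olfactory neurons, had 0.989 and 0.651 RPKM in the controls, against 2.45 and 1.29 under Zscan4 OE (limma, adjusted p = 0.869).

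Receptor density differed between genomic clusters. With neighbours less than 1 Mb apart counted as 1 run, the placed rows formed 57 runs. Of these, 27 held 8 rows or more and 1269 rows in all, and 17 rows stood alone. Rows that stood alone had 0.406, 0.445, 0.401 and 0.502 RPKM in the 4 libraries, from 17 to 97 reads, and rows of the 27 clusters had 0.289, 0.326, 0.331 and 0.310. Without Olfr718-ps1, the lone row with most reads, the other 16 stood at 0.328, 0.360, 0.338 and 0.403, and their exact Poisson 95% intervals, such as 0.252 to 0.498 in control 2, held the clusters' value in control 1, control 2 and Zscan4 OE 1, and began just above it, at 0.313, in Zscan4 OE 2. This exclusion was chosen after the data were seen. Mean cluster density ran from 0.217 RPKM in 8 rows on chromosome 16 (19285794 to 19625101) to 0.644 in 8 rows on chromosome 1 (92479681 to 92621001), the cluster of Olfr1413. Larger clusters tended to be less dense, with a Pearson r of -0.45 between log2 number of rows and log2 density over the 27 clusters, which share the libraries. In the 17 clusters of 20 rows or more, the outermost 3 rows at each end (102 rows) had 0.340 and 0.418 RPKM in the controls, against 0.377 and 0.365 under Zscan4 OE. The 1049 rows between them had 0.273, 0.300, 0.317 and 0.290, lower in 4 of 4 libraries. The choice of 3 rows at each end was made after earlier results of these data were known.

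Receptors with GC-rich promoter windows were also denser. Over 913 rows with 1 window, the rows with the highest GC (38.3% to 62.3%) had 0.344, 0.394, 0.414 and 0.376 RPKM. The rows with the lowest (18.3% to 33.0%) had 0.250, 0.275, 0.287 and 0.275. Within clusters this was less uniform: in 17 clusters of 20 rows or more, rows above their own cluster's median GC were denser in 11, and the ratio ran from 0.759 to 1.67 with a median of 1.07. Base composition of the rows themselves was not analysed here, and its part in this difference was not tested.

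Between groups, 5 of the 27 clusters were higher in both Zscan4 OE libraries than in either control, 5 were lower, and 17 overlapped. That is 18.5% of the clusters in either direction, per library total. The well-covered single rows of the whole table separated in 20% (higher) and 11.0% (lower). The flanking genes of the same clusters separated in 11.1% and 22.2%, on another scale: all reads of placed rows outside the family. The separated clusters are given as a description. Those higher were the 266-row cluster on chromosome 2 (85330967 to 90296859), with 0.247 and 0.201 RPKM in the controls, against 0.284 and 0.255 under Zscan4 OE, and the 44-row cluster further along it (111230853 to 112167982), with 0.216 and 0.153 against 0.256 and 0.262. The class I cluster, the 15-row cluster of Olfr1341 on chromosome 4 and an 18-row cluster on chromosome 7 (86268730 to 86695384) completed them. The last had the largest ratio, 2.34, from 0.151 and 0.138 RPKM in the controls to 0.405 and 0.269 in Zscan4 OE. Those lower were the 48-row cluster on chromosome 9 (18754692 to 20336094), a 64-row cluster on chromosome 10, the 34-row cluster on chromosome 14 that holds Olfr1507 and Olfr1509, a 10-row cluster on chromosome 15 and the 8-row cluster on chromosome 16, with ratios from 0.583 to 0.857. Scaled to the Olfr reads of each library, 9 clusters were lower instead of 5.

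Control 2 and, nearly as much, Zscan4 OE 1 differed from the other libraries in which clusters they favoured. Relative to the mean of the others, control 2 ran from 0.501 in the 18-row cluster on chromosome 7 to 1.89 on chromosome 9. The latter was the 48-row cluster, where its density was 0.520 RPKM against 0.279, 0.266 and 0.278. The 121-row cluster on chromosome 9 (37711348 to 40188094), which holds Olfr147 and Olfr981, had 0.480 RPKM in control 2 and 0.281, 0.375 and 0.316 elsewhere. The SD over the 27 clusters of this log2 ratio was 0.51 for control 2, where counting error alone gives 0.21; it was 0.40 against 0.35 for control 1, 0.46 against 0.21 for Zscan4 OE 1 and 0.25 against 0.19 for Zscan4 OE 2. Other genes within 5 Mb of a cluster were scaled to all reads of placed rows outside the family, and clusters to the library total. The 5 Mb distance was chosen after the data were seen. In RPM, rows other than Olfr had 92590 in control 2, against 122500 in control 1 and 126800 and 98150 in Zscan4 OE. On these unlike scales, flanks lay on the same side of 1 as the cluster in 21 of 27 cases for control 2. That count depends on the scales and was not made on a shared one. Log2 ratios of flanks and clusters correlated over the 27 clusters with a Pearson r of 0.76 for control 2, -0.10 for control 1, 0.41 for Zscan4 OE 1 and 0.37 for Zscan4 OE 2. Of the 10 clusters whose groups did not overlap, 4 had flanks that also did not overlap, in the same direction, each on its own scale. The cause of the regional differences of control 2 was not tested.

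**Figure D5:**
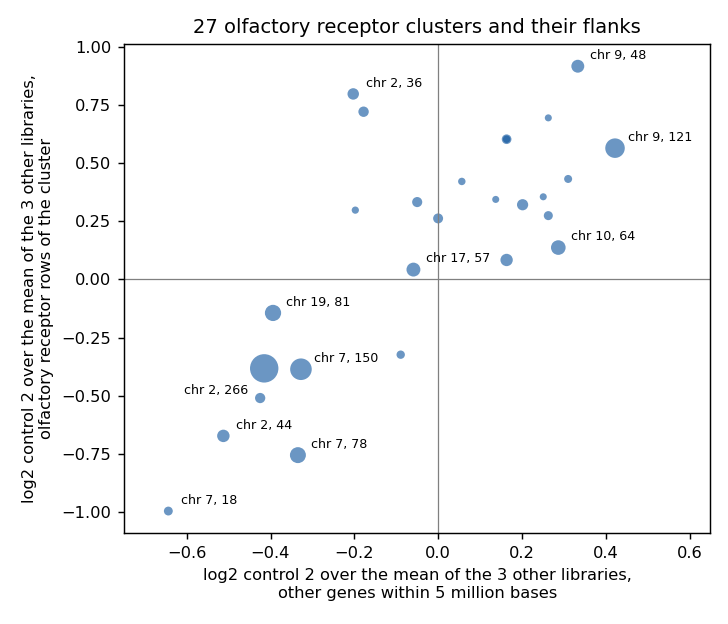
For the 27 olfactory receptor clusters of 8 rows or more, log2 of control 2 over the mean of the 3 other libraries. Receptor rows (vertical axis) are scaled to the library total. Other genes within 5 Mb (horizontal axis) are scaled to all reads of placed rows outside the family, and the count by quadrant depends on these scales. Points are sized by number of rows and some are labelled with chromosome and rows; 21 of 27 lie in the lower left or upper right part.

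Replicates resembled each other little at the level of single receptors. Over the 207 rows with 20 or more reads, Pearson's r of log2 RPKM was 0.07 for the control pair, 0.41 for the Zscan4 OE pair and 0.09 to 0.30 for pairs of unlike libraries. Over 15005 protein-coding rows with as many reads the same values were 0.44, 0.71 and 0.51 to 0.57. Rows are not independent, and those of receptors hold fewer reads.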

How the data were processed

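ATAC-seq was measured in 4 J1 embryonic stem cell libraries, 2 control and 2 Zscan4 OE, grouped by the labels. The deposited values are RPKM per gene row; per the submitters' processing notes the tools were Trimmomatic, Bowtie2 and featureCounts on mm10, while versions, duplicate removal, Tn5 shift, strand, multimapping and the annotation used are not stated there or in the labels.

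The deposited RPKM values were found to be whole reads divided by a length and by 1 of 8 totals that rotate from row to row. Exactly 1 rotation explained 38361 of 38361 rows with at least 2 values above 0, and 626 of 5918 rows with a single value stayed ambiguous. Values were rescaled to 1 total per library, of 1061428, 2903602, 3605774 and 4899494 reads. Which total belongs to which library was placed from the data and is not stated in the sources. The placement kept had the most even share of reads in the table's rows. The highest share was 1.36 times the lowest, against 4.17 to 10.15 times in the other placements. For each row the smallest whole reads and length that fit were taken, so both may be too small by a common factor. The RPKM of a row is unaffected. Summed reads and densities, Poisson intervals, the read minimum and length bins could change. A log2 fold change understates low rows.

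Limma (3.58.1, R 4.3.3) was run on log2(RPKM + 0.1), on rows with a mean of at least 0.1 RPKM, with Benjamini-Hochberg adjustment over all rows and a threshold of 0.05; a stricter fit used rows with 20 or more reads. Sums were compared with a two-sided exact permutation test (scipy 1.17.1). Of 1346 members, 1148 passed the filter, some only through the group where they are high. Scripts were tested on simulated data. With the main filter, limma recovered 0% of the 4-fold and 16-fold changes put into well-covered rows. With 20 or more reads it recovered 19% and 100%. The rows named were the 10 intact and 5 pseudogene rows of highest mean RPKM among those with 20 or more reads, the 5 largest and 5 smallest limma statistics with and without that minimum, 14 receptors well studied elsewhere, the 5 lowest intact rows of 1000 bases or more, and listed pathway genes. Members and lists were chosen with earlier results of these data known. Alternatives added after seeing the data were the leave-outs, block and voom fit of rows with 20 or more reads, lengths for rows without reads, the class I alternatives and the cluster scalings.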

Additional observations from a re-analysis of the deposited data

How the results depend on the processing

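Receptors called numbered 0 under every alternative except leaving out libraries, where they ran from 0 to 109, and from 0 to 24 among rows with 20 or more reads. A replicate block also called 0 and gave summed ratios of 1.05 for all rows, 1.06 for intact, 0.976 for pseudogenes and 1.35 for class I. Same-numbered libraries shared only a number: their deviations correlated at 0.04 over tested rows and 0.10 over the 207 receptors. The ratio of summed reads ran from 0.983 to 1.11 for all rows and from 0.983 to 1.13 for intact rows when a library was left out, and was 0.981 and 0.987 per table reads; for class I it ran from 1.29 to 1.41. With values as deposited the ratios were 2.20 (all), 2.22 (intact), 2.02 (pseudogenes, reversed) and 3.05 (class I). Olfr over other density in the controls was 0.187 by medians, and 0.269 to 0.402 when a control was left out (0.298 to 0.360 in Zscan4 OE). Pseudogene over intact density in the controls was 1.26 as deposited, 0.277 by medians and 1.31 in rows of 500 to 1500 bases, and 1.05 to 1.22 without a control; in Zscan4 OE it was 0.942 by medians and 1.16 in that length range. Rows detected at matched depth were 644 and 668, against 690 and 701 at the depth of exon reads and 632 and 649 in rows with at least 2 values. The clusters lower in Zscan4 OE numbered 9 when scaled to Olfr reads. Olfr1389 reversed as deposited, to 0.02. Of 279 alternatives for 19 rows chosen by statistic, 17 passed the threshold, all on leaving out a library. The causes were not tested. Depth limits single receptors, with a median of 9 reads in rows that had any.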
